A study of Mus musculus with 6 samples.

Results

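Transcripts of the p53 gene Trp53 and of 9 genes that p53 is known to activate were followed through the differentiation of CAD cells. The 9 targets, Eda2r, Trp53inp1, Mdm2, Ccng1, Aen, Phlda3, Zmat3, Sesn1 and Plk2, act mainly in feedback on p53, in stress and growth signalling and in cell death, and less in the arrest of the cell cycle. They were taken by gene symbol from a table of 26436 genes, in which all 10 symbols had 1 row each and all 10 rows carried an adjusted p-value. CAD is a mouse catecholaminergic cell line of central nervous system origin, which divides in serum and extends processes once serum is withdrawn. The 3 undifferentiated libraries came from cells grown in DMEM/F12 with penicillin, streptomycin and fetal bovine serum (10%). The 3 differentiated libraries came from cells held for 5 days in DMEM/F12 with penicillin, streptomycin and a supplement of insulin, transferrin and selenium, so loss of serum, the supplement and differentiation cannot be told apart. All libraries came from the same line, and the labels name no transgene, deletion or other agent. Whether each library had a culture of its own is not stated in the labels; p-values then reflect only the spread among these samples, which may be technical.

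p53 is a transcription factor that is held at a low level by MDM2, a ubiquitin ligase that marks it for destruction and whose own gene p53 activates. DNA damage, ribosomal stress or loss of growth signals can break that loop, and p53 then raises genes for arrest, repair, metabolism or death, in sets that differ between cell types. Several of these genes answer to other factors as well, among them the FOXO proteins, which insulin signalling keeps out of the nucleus.

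The promoter letters of the genes are shown because p53 reads DNA directly, as pairs of a 10-base motif, here called the p53 decamer. RefSeq windows on GRCm38.p6, from 250 bases before to 50 bases after an annotated start, were given for 8 of the 10 genes, with 2 windows each for Aen and Sesn1. The Sesn1 windows lie at a start near the 5′ end of the gene, here called outer, and at one inside the gene, called inner. The p53 decamer without mismatch, a motif that reads the same on both strands, lay in a window of 5 of these 8 genes, Aen, Ccng1, Mdm2, Sesn1 and Trp53, where 9.55% of 27025 genes had one. No gene of the 8 held a pair of decamers at most 13 bases apart, which 0.0740% of all genes held. The FOXO motif GTAAACA, searched on both strands, lay in a window of Eda2r, Mdm2 and Sesn1, where 4.05% of all genes had one. Neither motif was in the windows of Phlda3 and Plk2, and these letters say nothing about binding outside the windows. Below, each line gives the gene, its position on GRCm38.p6 and the bases from 5′ to 3′ on the strand of the gene. Capitals mark the FOXO motif in Eda2r and at the outer Sesn1 start, and the p53 decamer in the others. The whole window is printed for Eda2r and Aen, which had the highest and the lowest fold change of the 10, and 80 bases around the match for the rest.
Eda2r, chrX:97377160-97377459, minus strand: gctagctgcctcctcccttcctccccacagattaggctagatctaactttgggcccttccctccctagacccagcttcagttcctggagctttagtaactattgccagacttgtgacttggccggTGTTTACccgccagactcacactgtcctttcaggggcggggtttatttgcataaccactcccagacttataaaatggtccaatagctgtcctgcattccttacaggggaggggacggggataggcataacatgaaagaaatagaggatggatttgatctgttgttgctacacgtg
Aen, chr7:78895677-78895976, plus strand: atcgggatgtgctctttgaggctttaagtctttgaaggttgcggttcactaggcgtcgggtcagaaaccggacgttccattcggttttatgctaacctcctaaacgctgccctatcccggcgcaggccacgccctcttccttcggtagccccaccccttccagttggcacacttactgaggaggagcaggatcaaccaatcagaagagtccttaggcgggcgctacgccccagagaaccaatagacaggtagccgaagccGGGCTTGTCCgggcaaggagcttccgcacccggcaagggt
Trp53, chr11:69580249-69580328, plus strand: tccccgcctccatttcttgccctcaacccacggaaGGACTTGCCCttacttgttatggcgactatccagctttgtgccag
Mdm2, chr10:117710900-117710979, minus strand: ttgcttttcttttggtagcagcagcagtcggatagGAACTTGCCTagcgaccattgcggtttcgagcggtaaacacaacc
Ccng1, chr11:40755427-40755506, minus strand: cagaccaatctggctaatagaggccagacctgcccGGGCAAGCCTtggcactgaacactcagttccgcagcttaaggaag
Sesn1, inner start, chr10:41887231-41887310, plus strand: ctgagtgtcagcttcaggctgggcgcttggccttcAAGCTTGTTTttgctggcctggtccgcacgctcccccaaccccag
Sesn1, outer start, chr10:41810544-41810623, plus strand: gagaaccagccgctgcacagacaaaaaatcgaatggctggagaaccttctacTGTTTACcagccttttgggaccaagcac
Counted from the annotated start, the decamer lay from -75 to -66 in Trp53, from -186 to -177 in Mdm2, from -185 to -176 in Ccng1 and from -173 to -164 at the inner Sesn1 start. In Aen it lay from 11 to 20 of the window printed, and the second Aen window holds the same match. The FOXO motif lay from -125 to -119 in Eda2r, from 23 to 29 at the outer Sesn1 start and from -153 to -147 in Mdm2.

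Between undifferentiated and differentiated cells these genes split. The receptor gene Eda2r and the stress gene Trp53inp1 rose several-fold, and Sesn1 and Plk2 rose by less than 2-fold. Trp53 itself and Aen fell, and the other 4 did not pass the test. In the authors' deposited table, 4 of the 10 genes were called higher and 2 lower at an adjusted p under 0.05 by DESeq2's Wald test. Of all 20285 genes tested, 35.9% were called, 18.2% higher and 17.7% lower. All 10 genes had a mean normalized count of at least 100, and among the 13197 tested genes at that level 47.5% were called, 21.9% higher and 25.6% lower. With 10 genes, a called share of 60.0% beside 47.5% is not read as a property of the group. The median log2 fold change of the 10 genes was 0.23, beside 0.01 over all tested genes and -0.03 over those with a mean of at least 100. Per-library values were not analysed here, so every value is the authors' mean over libraries or their fold change of differentiated over undifferentiated cells.

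**Figure D1:**
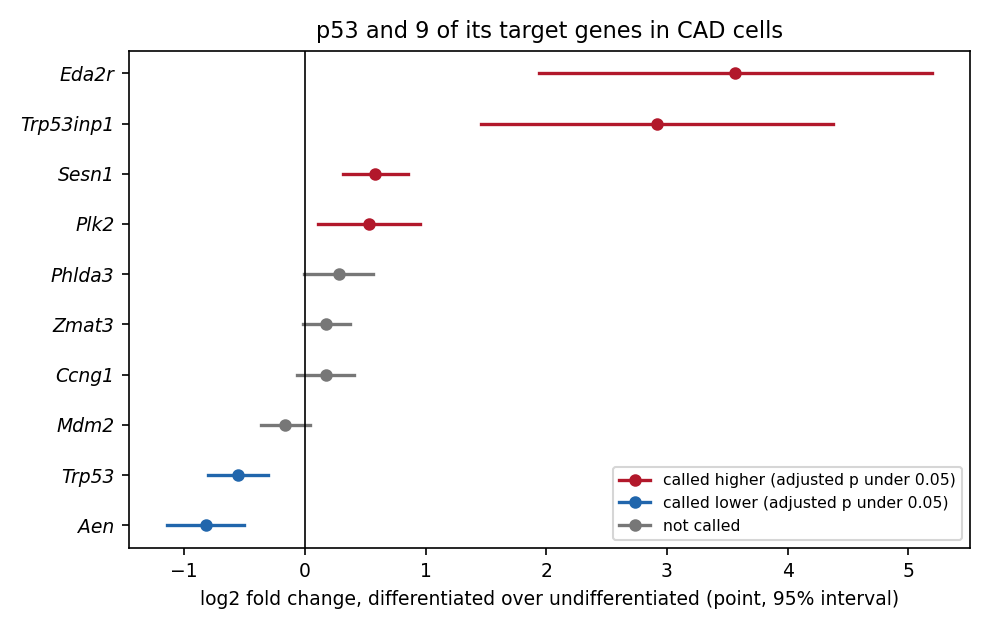
Log2 fold changes of Trp53 and 9 target genes, differentiated over undifferentiated cells (3 libraries each). Points are the authors' estimates and lines the 95% intervals; Eda2r (3.57) and Trp53inp1 (2.92) stand far to the right with wide intervals, and Trp53 (-0.55) and Aen (-0.82) lie wholly below 0.

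Group means named as implied were computed from the authors' mean normalized count and fold change, with both groups taken as equally large. In bulk RNA, fewer cells that express a gene and less RNA per cell cannot be told apart. The summed implied mean of the 9 targets was 12901 normalized counts in undifferentiated and 14388 in differentiated cells. The abundant Mdm2, Zmat3 and Aen dominate this sum, but the implied means of Mdm2 and Aen were lower in differentiated cells. That of Zmat3 was higher, and that of Trp53inp1 went from 221.8 to 1674 normalized counts.

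The gene for p53 itself fell. Trp53, on chromosome 11 from 69580359 to 69591873 (plus strand), had an implied mean of 3652 normalized counts in undifferentiated and 2489 in differentiated cells. In the authors' deposited table its log2 fold change was -0.55 (SE 0.12, adjusted p 7.01e-05, Wald test), or 0.681 times the undifferentiated level, with a 95% interval from 0.575 to 0.807. Per kb of exon, Trp53 was the most abundant of the 10 genes, at a mean of 759.1 normalized counts per kb. The processed pseudogene Trp53-ps, which could share reads with it, had a mean of 112.9 normalized counts and a log2 fold change of -0.45 (adjusted p 0.0718, Wald test) in the authors' deposited table.

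Mdm2 and Ccng1, whose products act in feedback on p53, were not called. Mdm2, on chromosome 10 from 117688875 to 117710758 (minus strand), encodes the ligase that degrades p53, and its implied mean was 3917 normalized counts in undifferentiated and 3501 in differentiated cells. Its log2 fold change in the authors' deposited table was -0.16 (SE 0.10, adjusted p 0.229, Wald test), and its interval ran from 0.777 to 1.03 times the undifferentiated level. Ccng1, on chromosome 11 from 40748552 to 40755311 (minus strand), encodes cyclin G1, which brings a phosphatase to MDM2. It stood at a log2 fold change of 0.17 (SE 0.12, adjusted p 0.281, Wald test) in the authors' deposited table, with implied means of 1171 and 1319 normalized counts in undifferentiated and differentiated cells. The interval of Ccng1 ran from 0.957 to 1.33 times the undifferentiated level, so a change of 1.5-fold lies outside it.

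Among genes of growth and stress signalling, Sesn1 rose, Trp53inp1 rose more and with a far larger error, and Phlda3 was not called. Sesn1, on chromosome 10 from 41809935 to 41908424 (plus strand), encodes sestrin 1, which restrains the growth kinase mTORC1. Its implied mean was 1278 normalized counts in undifferentiated and 1914 in differentiated cells, and its log2 fold change in the authors' deposited table was 0.58 (SE 0.14, adjusted p 0.000153, Wald test). Trp53inp1, on chromosome 4 from 11156431 to 11174379 (plus strand), encodes a stress-induced protein that takes part in autophagy and cell death. It went from an implied 221.8 normalized counts to 1674, and its log2 fold change in the authors' deposited table was 2.92 (SE 0.74, adjusted p 0.000514, Wald test). The interval of Trp53inp1 ran from 2.75-fold to 20.7-fold. Phlda3, on chromosome 1 from 135766119 to 135769136 (plus strand), encodes a pleckstrin homology protein that hinders AKT at the membrane. In the authors' deposited table it stood at 0.28 (SE 0.15, adjusted p 0.127, Wald test), and its interval, from 0.995 to 1.48 times the undifferentiated level, started just below no change.

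The genes with roles in death went opposite ways. Eda2r, on chromosome X from 97333840 to 97377216 (minus strand), encodes a receptor of the tumour necrosis factor family that binds a splice form of ectodysplasin. Its implied mean was 21.3 normalized counts in undifferentiated and 252.4 in differentiated cells. The log2 fold change of Eda2r in the authors' deposited table was 3.57 (SE 0.83, adjusted p 0.000119, Wald test), with an interval from 3.84-fold to 36.5-fold. Among the 13197 tested genes with a mean of at least 100, 13 had a fold change at least as high as that of Eda2r, itself included, and 32 as high as that of Trp53inp1. Aen, on chromosome 7 from 78895854 to 78911209 (plus strand), encodes a nuclease that p53 induces and that enhances apoptosis. It fell from an implied 2782 to 1574 normalized counts, with a log2 fold change of -0.82 (SE 0.16, adjusted p 3.85e-06, Wald test) in the authors' deposited table. That left Aen at 0.566 times the undifferentiated level, with an interval from 0.454 to 0.705.

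The remaining pair comprises an RNA-binding protein and a kinase. Zmat3, on chromosome 3 from 32334792 to 32366014 (minus strand), encodes a zinc finger protein that binds RNA, and it missed the threshold at a log2 fold change of 0.18 (SE 0.10, adjusted p 0.161, Wald test) in the authors' deposited table. Its implied means were 2245 and 2538 normalized counts in undifferentiated and differentiated cells, and its interval ran from 0.988 to 1.29 times the undifferentiated level. Plk2, on chromosome 13 from 110395046 to 110400844 (plus strand), encodes a polo-like kinase that takes part in centriole duplication and, in neurons, in the control of synapses. It rose from an implied 342.3 to 494.6 normalized counts, with a log2 fold change of 0.53 (SE 0.21, adjusted p 0.0380, Wald test) in the authors' deposited table. Of the 6 calls this was the least firm: with the trend of fold change over mean expression removed, the adjusted p of Plk2 was 0.0537. All 10 genes are annotated as protein coding, and none overlaps another annotated gene except Sesn1, whose overlapping gene 9930024M15Rik had a mean of 0.333 normalized counts.

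**Figure D2:**
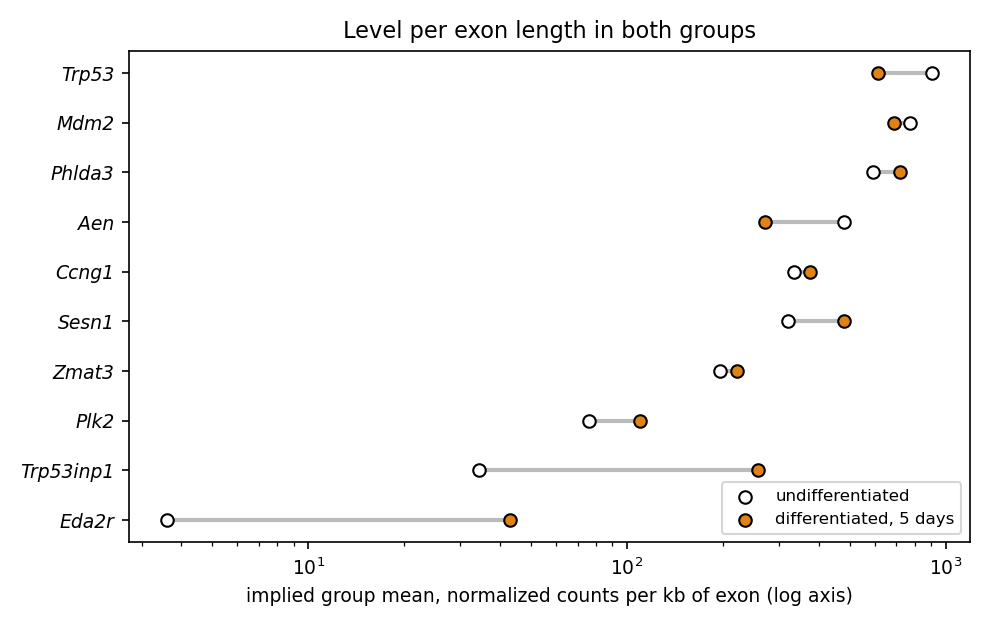
Implied group means per kb of exon on a log axis, for undifferentiated (white) and differentiated (orange) cells. Eda2r rises from 3.61 to 42.8 and Trp53inp1 from 34.3 to 258.6 normalized counts per kb, while Trp53 (902.9 to 615.2) and Aen (479.6 to 271.3) move to the left.

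Levels can be compared between genes only per length, and exon lengths of GENCODE M21 were used for this, from 1559 bases in Phlda3 to 11435 bases in Zmat3. Each length joins the exons of all annotated transcripts of a gene, 2 in Phlda3 and 6 in Trp53. It may exceed the length of the transcripts present. Mean normalized counts per kb then spanned 32.7-fold, from 23.2 in Eda2r to 759.1 in Trp53. Mdm2 (729.7) and Phlda3 (654.9 normalized counts per kb) were next to Trp53 at the top. Sesn1 (400.9), Aen (375.5) and Ccng1 (354.5 normalized counts per kb) formed a middle group, followed by Zmat3 (209.1), Trp53inp1 (146.4) and Plk2 (93.2 normalized counts per kb). In implied levels, Trp53 led in undifferentiated cells at 902.9 normalized counts per kb, and Phlda3 led in differentiated cells at 718.4, ahead of Mdm2 at 688.8 and Trp53 at 615.2 normalized counts per kb. Other choices of length, which could change these orders and the leading gene, were not tried. No error of a level was available, so neighbours in these orders were not compared by a test.

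The 2 strongest increases were also the least precise. The standard error of Trp53inp1 was 6.03 times the median of the 200 tested genes nearest to it in mean expression, and all 200 had a smaller one. For Eda2r the ratio was 3.92, and 99.0% of its 200 neighbours had a smaller standard error. The ratios of the other 8 genes lay between 0.917 for Zmat3 and 1.498 for Aen. Among the 13197 tested genes with a mean of at least 100, 188 (1.42%) had a ratio of at least 3. Genes of like mean need not be alike in each group: the implied mean of Eda2r was 21.3 normalized counts in undifferentiated cells. The part of such low counts in the larger errors was not tested. Which libraries carry any extra spread was not analysed here.

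**Figure D3:**
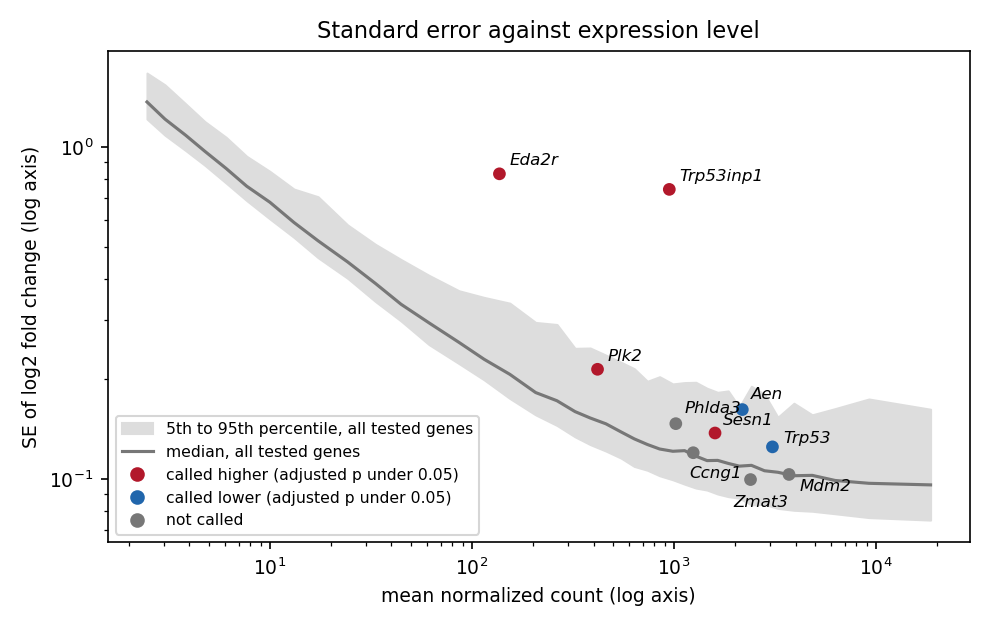
Standard error of the log2 fold change against mean normalized count, both on log axes, with the median (line) and the range from the 5th to the 95th percentile (band) of all tested genes. Eda2r (SE 0.83) and Trp53inp1 (SE 0.74) lie above the band, and the other 8 genes lie within it.

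Family relatives of the 10 genes were read from the same comparison. Of 16 tested relatives, 7 were called higher and 4 lower in the authors' deposited table, with a median log2 fold change of 0.26. Of all tested genes, 18.2% were called higher and 17.7% lower, and of those with a mean of at least 100, 21.9% and 25.6%. The sestrins were called higher together in the authors' deposited table, Sesn2 at 0.85 (SE 0.19) and Sesn3 at 1.10 (SE 0.18) beside Sesn1 at 0.58. Trp53inp2, which takes part in autophagy, had a log2 fold change of 1.40 (SE 0.15, adjusted p 4.02e-19, Wald test) in the authors' deposited table, with a far narrower interval than Trp53inp1. The polo-like kinases split: the mitotic kinase gene Plk1 (-1.03, SE 0.16) and the centriole kinase gene Plk4 (-1.04, SE 0.13) fell in the authors' deposited table, Plk2 rose, and Plk3 stood at 0.25 (SE 0.11, adjusted p 0.0584, Wald test). Ccng2, which encodes cyclin G2, had an estimate of 1.28 in the authors' deposited table but a standard error of 0.56 (adjusted p 0.0591, Wald test), while its more distant relative Ccni rose (0.62, SE 0.11). Mdm4, whose product binds and inhibits p53, was called higher at a log2 fold change of 0.28 (SE 0.11, adjusted p 0.0395, Wald test) in the authors' deposited table, a call lost when all genes with a p-value entered the adjustment (0.0514). The nuclease gene Isg20l2 was called lower (-0.26, SE 0.10, adjusted p 0.0216, Wald test) in the authors' deposited table, a call lost once the trend over mean expression was removed (0.0506), whereas Isg20 rose (2.76, SE 0.38) at a mean of 42.6 normalized counts. Phlda2, a relative of Phlda3, fell by 1.40 (SE 0.33, adjusted p 0.000119, Wald test) in the authors' deposited table at a mean of 47.5 normalized counts. Trp73, a sister gene of Trp53, was called higher in the authors' deposited table (3.32, SE 1.19, adjusted p 0.0179, Wald test), but at a mean of 5.14 normalized counts its fold is poorly fixed. Trp63 was not analysed here.

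**Figure D4:**
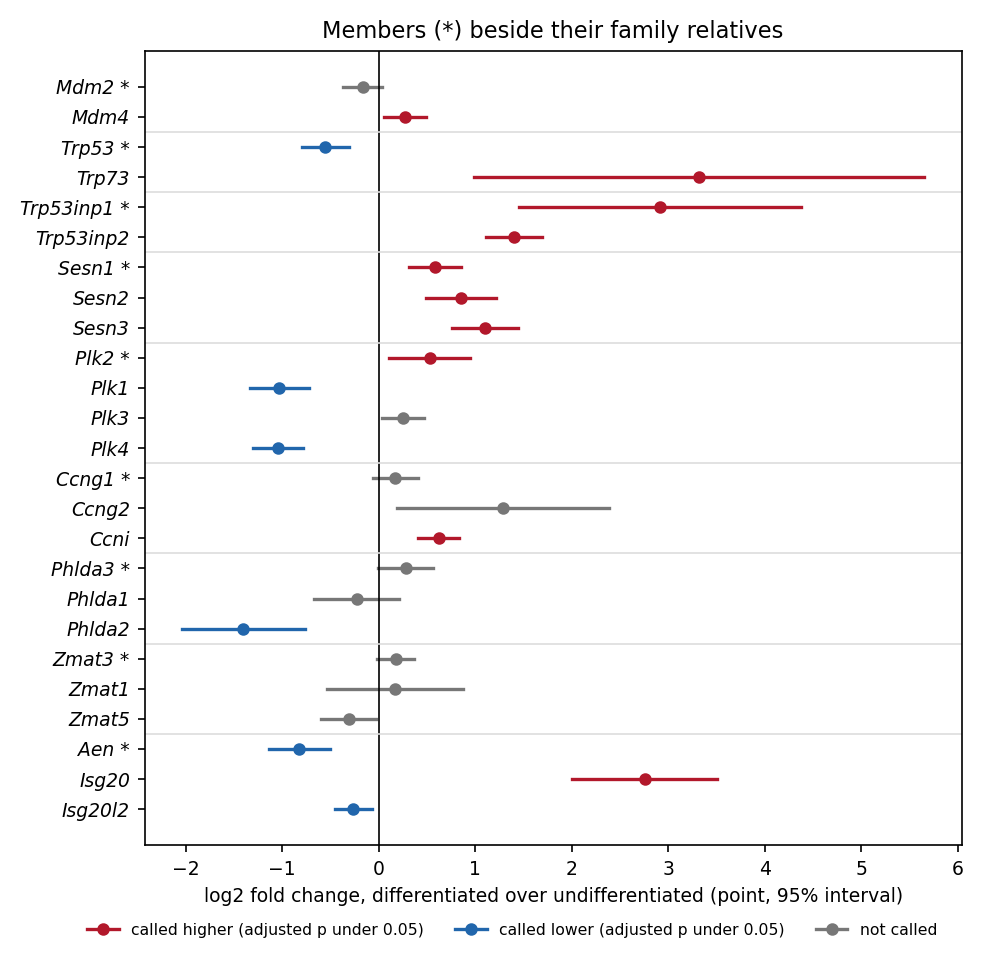
Log2 fold changes (points) with 95% intervals (lines) of the genes described except Eda2r (marked with a star) and 16 relatives, grouped by family and differentiated over undifferentiated. All 3 sestrins lie above 0, and Plk1 (-1.03) and Plk4 (-1.04) lie opposite to Plk2 (0.53).

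Other p53 targets were mixed too. Of 5 tested targets of cell cycle arrest, 2 were called higher and 1 lower in the authors' deposited table (median 1.13). The shares were 18.2% and 17.7% of all tested genes, and 21.9% and 25.6% of those with a mean of at least 100. Btg2 (2.03, SE 0.45) and Gadd45a (1.57, SE 0.29), which restrain proliferation, rose in the authors' deposited table, and Gtse1 (-1.13, SE 0.18), a gene of the G2 and S phases, fell. Cdkn1a, the p21 gene and the best known p53 target, missed the threshold at 0.30 (SE 0.19, adjusted p 0.213, Wald test) in the authors' deposited table. Of 9 tested targets of the apoptotic machinery, 0 were called higher and 4 lower by the authors' Wald test (median -0.17). Beside them stand 18.2% and 17.7% of all tested genes, and 21.9% and 25.6% of those with a mean of at least 100. At an unadjusted p under 0.05, 2 of the 9 were higher and 4 lower. The 2 were Bbc3 and Perp, the latter at a mean of only 5.43 normalized counts. The share of all tested genes at that unadjusted p was not counted, and no other tool was run. Siva1 (-1.04, SE 0.18), Pidd1 (-0.95, SE 0.17) and Apaf1 (-0.46, SE 0.11), the apoptosome scaffold gene, fell in the authors' deposited table, as did Bax (-0.31, SE 0.10), which was no longer called once the trend over mean expression was removed (adjusted p 0.0558). The BH3-only gene Bbc3, which encodes PUMA, had an estimate of 1.36 (SE 0.59, adjusted p 0.0590, Wald test, unadjusted p 0.0219) in the authors' deposited table, and it was called when only genes with a mean of at least 100 entered the adjustment (0.0447). Of 16 tested targets of repair and metabolism, 5 were called higher and 3 lower in the authors' deposited table (median -0.03), beside the same background. Ddit4 (1.47, SE 0.56), an inhibitor of mTORC1 signalling, Rrm2b (0.87, SE 0.11), a ribonucleotide reductase subunit gene, and Sesn2 rose in the authors' deposited table, while the polymerase gene Polh (-0.66, SE 0.14), Fdxr (-0.45, SE 0.15) and Tigar (-0.38, SE 0.11) fell.

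Of 23 tested regulators and partners of p53, 7 were called lower and 4 higher in the authors' deposited table (median -0.07), shares near the 25.6% and 21.9% of all tested genes with a mean of at least 100. The checkpoint kinase genes Chek1 (-1.01, SE 0.16) and Atm (-0.94, SE 0.16), whose products signal DNA damage to p53, fell in the authors' deposited table. Rpl11, whose ribosomal protein can bind MDM2, fell by 0.42 (SE 0.09), and the p53-binding genes Ppp1r13l (0.74, SE 0.18) and Ppp1r13b (0.56, SE 0.13) rose, as did the ubiquitin ligase gene Rchy1 (0.39, SE 0.10), in the authors' deposited table.

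On the pathway of the Eda2r receptor, 3 of 12 tested genes were called higher and 2 lower in the authors' deposited table (median 0.26), shares near the 18.2% and 17.7% of all tested genes. The ligand gene Eda rose with its receptor, by a log2 fold change of 0.79 (SE 0.13, adjusted p 1.04e-08, Wald test) in the authors' deposited table, at implied means of 417.7 and 721.3 normalized counts in undifferentiated and differentiated cells. Its splice forms were not separated by these gene values. The kinase gene Map3k14 (0.61, SE 0.24) and the NF-kB subunit gene Rela (0.34, SE 0.09) rose in the authors' deposited table, while the adaptor genes Traf3 (-0.61, SE 0.11) and Traf2 (-0.43, SE 0.13) fell. The call of Map3k14 (adjusted p 0.0288, Wald test) was lost once the trend over mean expression was removed (0.121). The sister receptor gene Edar was not analysed here.

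FOXO factors and their targets overlap in part with p53 targets by family. In the authors' deposited table, 11 of 19 tested were called higher and 1 lower, with a median log2 fold change of 0.67. Of all tested genes, 18.2% were called higher and 17.7% lower. Of the 19, 17 had a mean of at least 100, where 21.9% of tested genes were called higher and 25.6% lower. The list was chosen with earlier results of these data known, so its counts are not read as a property of the list. Foxo3 rose (1.64, SE 0.19, adjusted p 1.02e-15, Wald test), and its targets Bnip3 (2.26, SE 0.74) and Fbxo32 (1.77, SE 0.21) had the highest fold changes beside it in the authors' deposited table, counting only called genes of the list whose mean was 100 or more. Foxo1 had a mean of 5.21 normalized counts and an estimate of 0.20 (SE 0.88, adjusted p 0.902, Wald test) in the authors' deposited table. The 1 gene called lower was Sod2 (-0.26, SE 0.11, adjusted p 0.0399, Wald test) in the authors' deposited table, and that call was lost under 5 of the alternatives tried.

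**Figure D5:**
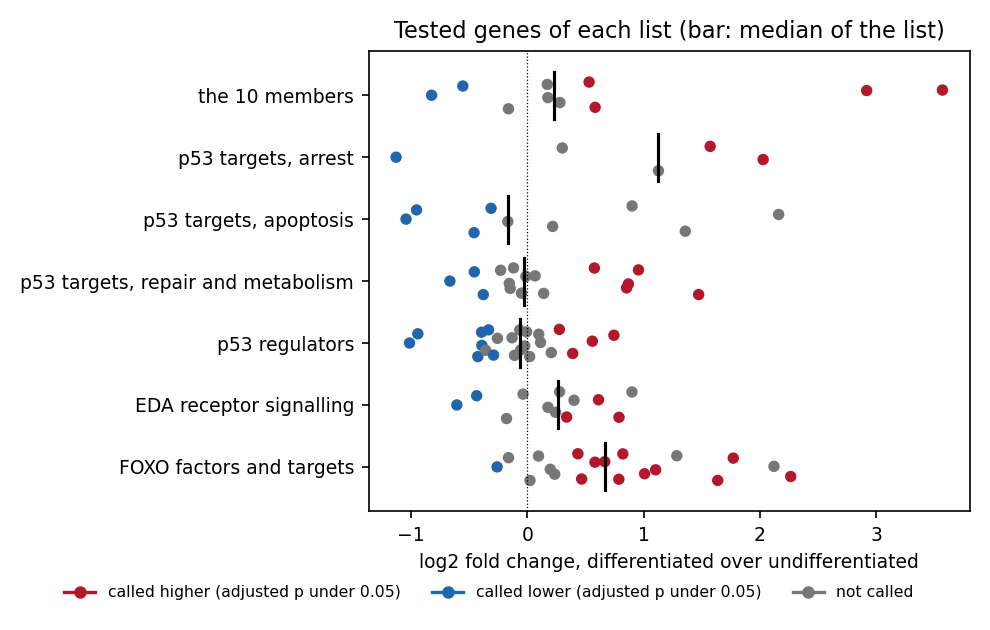
Log2 fold changes of the 10 genes and of the tested arrest, apoptosis, repair, regulator, EDA receptor and FOXO lists (points, spread vertically only for legibility), with the list median as a bar. The list of family relatives is not drawn, but its Mdm4, Sesn2, Sesn3 and Ccng2 also belong to lists that are. Medians run from -0.17 for the apoptotic targets to 1.13 for the 5 arrest targets, and Eda2r (3.57) and Trp53inp1 (2.92) lie farther right than any gene of the other 6 lists.

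Markers of the labelled cell type were detected. All 10 markers of catecholaminergic neurons were tested, with means from 59.7 normalized counts for Ddc to 16488 for Tubb3 in the authors' deposited table. Of the 10, 4 were called higher and 2 lower. Of all tested genes, 18.2% were called higher and 17.7% lower, and of those with a mean of at least 100, 21.9% and 25.6%. Not called were Th (0.34, SE 0.25), Slc18a2 (-0.05, SE 0.21), Chga (0.04, SE 0.14) and Snap25 (0.41, SE 0.18), in the authors' deposited table. Th had a mean of 91.3 normalized counts and Slc18a2 one of 125.7. The 2 lower were Dbh, the gene of the enzyme that makes noradrenaline, at -5.35 (SE 0.62), or an implied 568.6 and 13.95 normalized counts in undifferentiated and differentiated cells, and Phox2a at -0.87 (SE 0.15), in the authors' deposited table. Markers of macrophages with a row here reached at most 8.52 normalized counts, and glial markers at most 74.5. Of 4 tested fibroblast markers, Pdgfrb was called higher (2.51, SE 0.29) in the authors' deposited table. The summed implied mean of the list went from 113.4 to 421.3 normalized counts. At an unadjusted p under 0.05, 3 of the 4 were higher, Pdgfrb, Pdgfra and Col1a2. The share of all tested genes at that unadjusted p was not counted. Apart from Pdgfrb, the markers of that list had means of 53.7 (Col1a1), 18.3 (Pdgfra), 4.03 (Col1a2), 0.860 (Dcn) and 0.353 (Lum) normalized counts. Of 3 tested glial markers, Mbp was called higher (1.498, SE 0.51) in the authors' deposited table, with a summed implied mean of 83.1 and 118.7 normalized counts for the list. Their part in the results above was not tested.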

How the data were processed

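RNA of T25 cultures was column-purified with DNase treatment and sequenced from stranded libraries as single-end reads of 50 bases, per the labels' protocols. The submitters' processing notes name STAR 2.5.1a, Trimmomatic 0.36, FastQC 0.11.5 and DESeq2, and the build GRCm38.p6. Neither a read counter nor its strand setting or annotation is given in these sources. The signal deposited is each gene's mean normalized count over libraries, taken here as all 6. The log2 fold change, its log2 standard error and the Wald score are the authors' values, and the score equals the fold change over its standard error (largest difference 1.24e-13). The deposited p-value is that of the score, and the adjusted p-value is a Benjamini-Hochberg adjustment over 20285 genes, the rest having means of at most 2.25. Over all genes the means add up to 38846803, and depth by library was not analysed here.

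No test was refitted. The design foresaw this branch, with the authors' comparison as the test. The 95% intervals are normal intervals from the standard error. Exon lengths and positions come from GENCODE M21 (GRCm38), which matched 26311 gene IDs, and promoter windows from RefSeq on GRCm38.p6. Python 3.11.15, pandas 2.3.3, numpy 2.4.6 and scipy 1.17.1 were used, and the recomputed Wald test and adjustment were tested on simulated data. Named outside the 10 genes were up to 3 highest and 3 lowest called genes per list with a mean of at least 100, and a fixed set of nearest relatives and partners; Ccni, Isg20, Phlda2, Bax, Bbc3, Perp and single cell type markers were named after their values were seen. The genes and lists were chosen with earlier results of these data known. Alternatives changed the threshold, the genes adjusted over, the scaling and the expression trend.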

Additional observations from a re-analysis of the deposited data

How the results depend on the processing

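Under 7 alternatives, the 10 genes kept their directions, and each kept its side of the threshold except Plk2, which was not called at an adjusted p under 0.01 (0.0380) or with the mean expression trend removed (0.0537). Across the settings the log2 fold change of Trp53 lay between -0.55 and -0.46, that of Eda2r between 3.42 and 3.60 and that of Mdm2 between -0.16 and -0.08. Centring on the median gene with a mean of at least 100 moved fold changes by 0.03, and centring on implied group totals by 0.02. Among the other lists, the count of catecholaminergic markers called higher was 1 and those of glial markers called higher and FOXO genes called lower were 0 at an adjusted p under 0.01. FOXO genes called lower were also 0 when all genes with a p-value were adjusted, under both centrings and with the trend removed. With only genes of a mean of at least 100, 1 apoptotic target was called higher, and glial markers called higher were 0, since Mbp has a lower mean. Allowing 1 mismatch at any base except the C and the G that are fixed in the motif put the p53 decamer in 6 of 8 genes. Of all genes, 54.2% had one. A pair of such decamers was found in Ccng1 alone of the 8, where 3.09% of all genes had one. No paired analysis was possible because per-library values were not analysed here, and the labels do not say whether the sample numbers pair the groups. Fits without single libraries were not run for the same reason. Depth limits genes of low mean most, such as Trp73.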

Other observations

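Large standard errors for their mean were shared by a few other genes of the lists. Of 83 other pathway and family genes with a mean of at least 100, 5 had a standard error at least 3 times the median of genes of like mean, where 1.42% of all tested genes at that level had one. Besides these, the marker gene Dbh had a ratio of 3.74, and its log2 fold change was -5.35 in the authors' deposited table. The 5 were Btg2 (ratio 3.84), Bbc3 (4.82), Ddit4 (5.86), Ccng2 (4.89) and Bnip3 (7.13), chosen after their values were seen. Each of the 5 had a log2 fold change above 0 in the authors' deposited table, from 1.28 for Ccng2 to 2.26 for Bnip3. Eda2r (3.92) and Trp53inp1 (6.03) were the others of the 10 genes described with such a ratio.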
